A study of Homo sapiens with 6 samples.

Results

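A set of 10 genes of collagen biology is described here in K562 cells: SPARC, the collagen genes COL15A1 and COL1A1, the prolyl hydroxylase genes P4HA1, P4HA2 and P4HB, the lysyl hydroxylase genes PLOD1, PLOD2 and PLOD3, and the collagen chaperone gene SERPINH1. They were taken by symbol, and all 10 were found among 19498 genes with a value. The list was selected on the KO against WT difference of these genes in the same 6 libraries, so that difference is described below and not tested. K562 is a human erythroleukaemia line derived from a patient with chronic myeloid leukaemia, with the BCR::ABL1 fusion, and it has erythroid and megakaryocytic features. ACK, the non-receptor tyrosine kinase encoded by TNK2, is an effector of the small GTPase Cdc42. The groups were 3 libraries labelled ACK KO and 3 labelled WT, each from polyadenylated RNA of K562 cells kept in RPMI medium with 10% fetal bovine serum. The labels call the libraries biological replicates without saying whether these were separate cultures, so p-values cover the spread of these libraries alone. How the knockout was made, and whether it is 1 clone, is not stated, and a difference between genotypes and one between lines cannot be told apart.

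Values are normalised counts, and their sums per library ran from 43.5 M to 49.5 M in the ACK KO group and from 46.7 M to 53.3 M in WT. The number of reads behind them is unknown, so errors rest on the spread between libraries. SDs are the spread of 3 libraries. SEs come from the limma fit, which uses both groups and draws on the spread of all tested genes. Differences are of log2(value + 1). TNK2 had values of 741, 506 and 598 in the libraries labelled ACK KO, against 829.7, 613 and 642 in WT, a log2 difference of -0.18 with an adjusted p of 0.681 (limma, Benjamini-Hochberg). Its mRNA therefore does not check the genotype, and the libraries are called KO-labelled below. The K562 markers were present in both groups, all 10 of 10 with values, and their sum per library was 79920 to 118763 in KO-labelled and 65742 to 106713 in WT libraries, with HBG2, ABL1 and HBG1 the highest by mean over the 6 libraries, an order that differed between libraries. Reads of HBG1 and HBG2 are hard to tell apart. Of the 10, the embryonic globin gene HBE1 rose, to a mean of 12385 in KO-labelled libraries, against 1315 in WT (adjusted p 7.84e-04, limma), and the other 9 did not pass. With the replicate number as a block BCR and ABL1 also rose and GATA1 fell, with adjusted p-values (limma) of 0.00554, 0.0197 and 0.00256.

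Collagens are triple helices of 3 chains with glycine at regular places. Before the chains fold in the endoplasmic reticulum, prolyl 4-hydroxylase, a complex of catalytic alpha subunits (P4HA1, P4HA2) with the beta subunit P4HB, hydroxylates prolines, which stabilises the helix, and lysyl hydroxylases (PLOD1 to PLOD3) modify lysines that later carry sugars and crosslinks. HSP47, the product of SERPINH1, binds the folded helix, and SPARC is a secreted glycoprotein that binds calcium and collagen and acts in matrix assembly.

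The promoters of the 2 genes with the highest differences, SPARC and COL15A1, and of P4HA1 and PLOD2, whose differences were close, are shown as the 250 bases before the RefSeq start (GRCh38.p14). Of the 10 genes 9 matched the RefSeq table, SERPINH1 with 2 windows. The windows lie at chr5:151686916-151687165 on the minus strand (SPARC), chr9:98943657-98943906 on the plus strand (COL15A1), chr10:73096867-73097116 on the minus strand (P4HA1) and chr3:146161185-146161434 on the minus strand (PLOD2). They run 5′ to 3′ along the gene. Starts differ between annotations, and the GENCODE 29 gene begins inside or upstream of each of these 4 windows. Capitals mark GGAGG, a purine-rich box known from the SPARC promoter, ACGTG and GCGTG (cores of the hypoxia response element), CCAAT and TATAAA on either strand, and matches that touch or overlap join into 1 run of capitals.
SPARC: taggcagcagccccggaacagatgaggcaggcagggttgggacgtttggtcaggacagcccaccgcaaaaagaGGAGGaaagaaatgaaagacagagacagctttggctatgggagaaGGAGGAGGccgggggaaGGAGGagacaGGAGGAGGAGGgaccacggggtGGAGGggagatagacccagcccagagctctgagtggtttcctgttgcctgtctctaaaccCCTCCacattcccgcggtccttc
COL15A1: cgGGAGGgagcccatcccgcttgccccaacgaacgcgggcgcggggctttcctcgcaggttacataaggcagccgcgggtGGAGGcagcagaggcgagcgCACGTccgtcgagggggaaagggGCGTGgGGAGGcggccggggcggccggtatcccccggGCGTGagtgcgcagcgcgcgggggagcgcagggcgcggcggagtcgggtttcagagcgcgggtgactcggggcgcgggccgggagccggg
P4HA1: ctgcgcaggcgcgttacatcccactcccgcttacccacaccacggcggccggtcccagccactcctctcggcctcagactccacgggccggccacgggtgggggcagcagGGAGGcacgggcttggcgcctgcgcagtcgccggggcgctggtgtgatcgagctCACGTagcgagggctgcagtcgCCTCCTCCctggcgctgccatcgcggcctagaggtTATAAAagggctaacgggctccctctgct
PLOD2: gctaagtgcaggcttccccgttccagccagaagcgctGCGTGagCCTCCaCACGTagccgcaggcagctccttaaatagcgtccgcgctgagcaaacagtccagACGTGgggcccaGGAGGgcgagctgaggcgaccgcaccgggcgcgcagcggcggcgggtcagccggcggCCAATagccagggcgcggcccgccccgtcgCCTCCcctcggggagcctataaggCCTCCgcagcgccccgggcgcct

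The SPARC window held 9 matches to GGAGG, 8 of them on the strand of the gene, and 1.096% of all 35116 RefSeq windows of this length hold as many or more, while 72.4% hold at least 1. It had 7 CpG dinucleotides at 59.2% G and C, where the COL15A1 window had 38 at 76.8% and the median window has 11 at 58%. ACGTG was found in the windows of COL15A1, P4HA1, PLOD2 and in 1 of the 2 SERPINH1 windows, against 18.5% of all windows. GCGTG was found in those of COL15A1, P4HB, PLOD1, PLOD2 and the same SERPINH1 window, against 32.2% of all. TATAAA stood 29 bases before the start of P4HA1 and, on both strands, 28 and 30 bases before that of P4HB, with 10.7% of windows holding it anywhere. The STAT motif TTCNNNGAA was in none of the 10 windows and is in 6.57% of all. Of the GATA factor motifs AGATAA was in none either (9.17% of all windows), and TGATAA was in that of P4HA2 (6.66%). The heat shock motif GAANNTTC was in 1 SERPINH1 window (5.78%), and the endoplasmic reticulum stress element in none (0.0740%). These matches are letters in a window and are not evidence of binding.

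SPARC had by far the highest difference of the 10. Its values were 7573, 5519 and 4748 in KO-labelled libraries, against 17.2, 8.68 and 15.3 in WT. The lowest KO-labelled value was far above the highest WT value, and WT cells held the mRNA at a level near the filter on low values. It averaged 5947 ± 1460.3 in KO-labelled and 13.7 ± 4.46 in WT libraries (SD, n = 3 each), with a log2 difference of 8.68 (SE 0.31), the fifth highest of 16658 genes tested. Per kilobase of exon, which allows genes to be compared, SPARC stood above 90.6% of tested genes in KO-labelled cells and above 3.55% in WT. In bulk RNA, more cells with the transcript and more transcript per cell cannot be told apart.

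SPARC occupies positions 151661096 to 151687165 of chromosome 5, minus strand (GRCh38, GENCODE 29). Its surroundings went the other way. The median log2 difference of the 10 tested genes on each side was -0.62, with 18 of these 20 below 0, 8 past the threshold as lower and 0 as higher, and the chromosome as a whole had a median of -0.62 over 693 tested genes. Among the nearest named genes the log2 difference was -1.43 for GM2A, -0.29 for SLC36A1, -0.26 for ATOX1 and -0.83 for G3BP1, with adjusted p-values (limma) of 0.0957, 0.6798, 0.7397 and 0.2997. With the replicate number as a block they were 3.22e-04 for GM2A and 1.19e-04 for G3BP1. GENCODE 29 has an antisense gene, CLMAT3, over exons of SPARC. The libraries were stranded, but no source used here says whether counting used the strand, so its share in the SPARC value is uncertain.

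COL15A1 encodes the chain of type XV collagen, a proteoglycan of the basement membrane zone. Its values were 49873, 38952 and 26565 in KO-labelled libraries, against 4193, 1831 and 1707 in WT. The groups did not overlap, and replicate 1 was the highest library of each genotype. Averages of 38463 ± 11662 in KO-labelled and 2577 ± 1401.1 in WT libraries (SD, n = 3 each) gave a log2 difference of 3.98 (SE 0.39). Within replicate numbers 1, 2 and 3 the log2 difference was 3.57, 4.41 and 3.96. The gene lies on the plus strand of chromosome 9, from 98943179 to 99070792, and the 20 tested genes around it had a median log2 difference of 0.02. An antisense gene without a name overlaps its exons and averaged 8.33 in KO-labelled libraries and was listed at 0 in WT.

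Its neighbours ANKS6, GALNT12, ALG2 and SEC61B had log2 differences of 0.10, 0.22, 0.03 and -0.10, and the receptor gene TGFBR1 of -0.59 (adjusted p 0.0981, and 3.34e-04 with the replicate block, limma). The plot of neighbours shows SPARC and COL15A1 standing alone at their loci. The values of ALG2 and SEC61B were so near 0 that their sign turned with the libraries used.

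**Figure D1:**
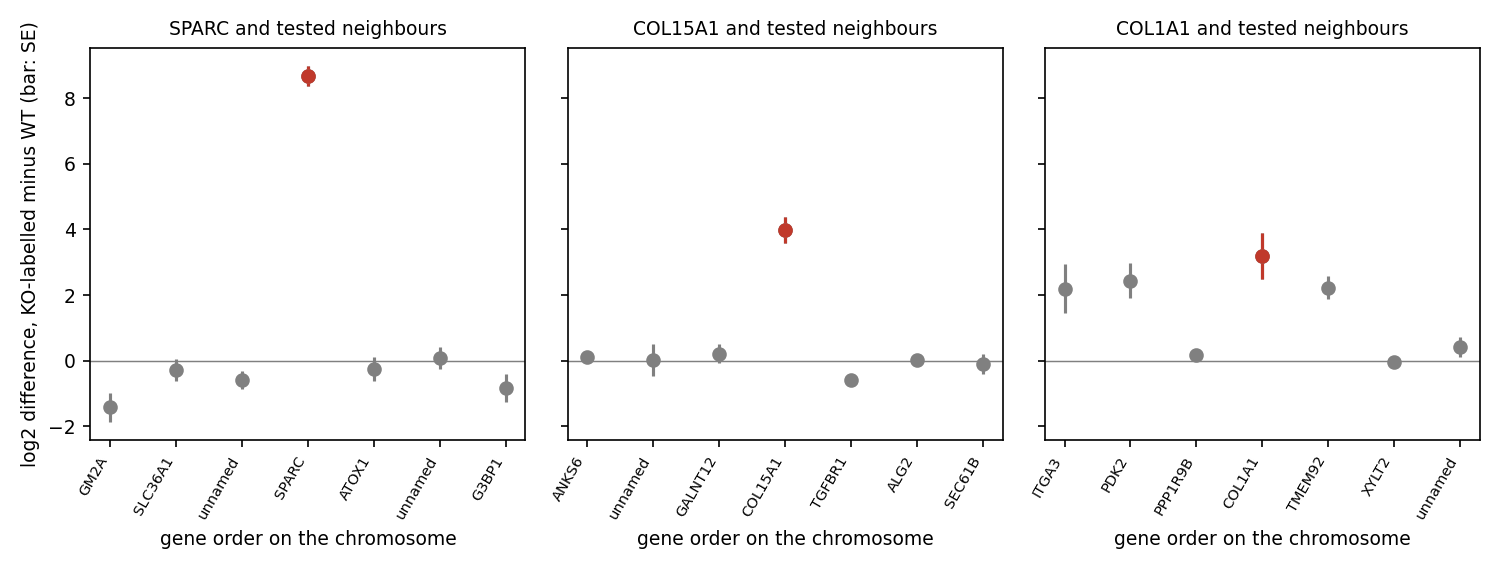
Log2 difference (KO-labelled minus WT, of log2(value + 1); bars are SE) of SPARC, COL15A1 and COL1A1 (red) and of the 3 nearest tested genes on each side (grey), in chromosomal order. SPARC at 8.68 and COL15A1 at 3.98 lie apart from their neighbours, and COL1A1 at 3.20 has neighbours above 2.

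COL1A1, which encodes the alpha 1 chain of type I collagen, the main collagen of bone and skin, stayed at low values throughout. They were 204, 74.6 and 121 in KO-labelled libraries, against 11.98, 4.68 and 32.2 in WT. The groups did not overlap, but the 3 WT values were spread over a wide range, and the averages were 133 ± 65.7 in KO-labelled and 16.3 ± 14.3 in WT libraries (SD, n = 3 each). The log2 difference was 3.20 (SE 0.70), and it was 2.58 without WT replicate 2 and 3.85 without WT replicate 3. Within replicate number 3 it was 1.88, against 3.98 and 3.73 within numbers 1 and 2. COL1A1 occupies positions 50183289 to 50201632 of chromosome 17, minus strand.

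Unlike SPARC and COL15A1, COL1A1 had neighbours that were also higher. TMEM92, the next tested gene, had values of 96.9, 76.6 and 68.96 in KO-labelled libraries, against 13.1, 13.3 and 24.6 in WT, and rose by a log2 of 2.23 (adjusted p 0.0113, limma; 0.0519 without KO-labelled replicate 3). PDK2, a pyruvate dehydrogenase kinase gene, rose by 2.44 (adjusted p 0.0334, limma), and its adjusted p was 0.0950 without KO-labelled replicate 1, 0.0560 without KO-labelled replicate 2, 0.135 without KO-labelled replicate 3 and 0.0759 without WT replicate 2. With the replicate block the adjusted p-values (limma) of TMEM92 and PDK2 were 0.00246 and 8.05e-04. ITGA3, an integrin alpha chain gene, had a log2 difference of 2.19 (adjusted p 0.131, and 0.0254 with the replicate block, limma). PPP1R9B, which lies among them, and XYLT2, which lies beyond TMEM92, had 0.18 and -0.03, and the sign of XYLT2 turned with scaling and libraries. Of the 20 tested genes around COL1A1, 4 passed as higher and 0 as lower, and the median was 0.09.

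**Figure D2:**
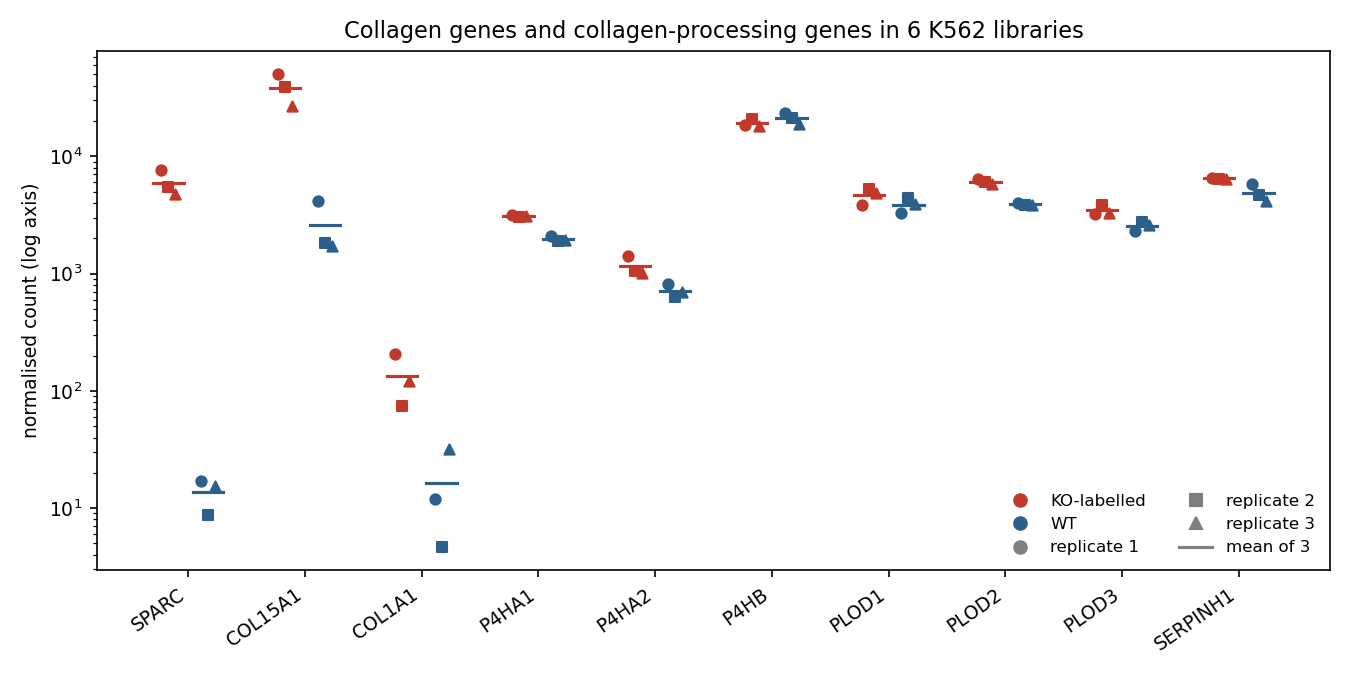
Normalised counts (log axis) of the 10 genes in each library, KO-labelled in red and WT in blue, with the replicate number as the symbol and the mean of 3 as a line. SPARC, COL15A1 and COL1A1 lie at clearly separate levels in the groups, and P4HB overlaps.

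Of the prolyl 4-hydroxylase subunits, both alpha subunit genes were higher in KO-labelled cells and the beta subunit gene was not. P4HA1, on chromosome 10 from 73007217 to 73096974, had values of 3185, 3049 and 3122 in KO-labelled libraries, against 2092, 1896 and 1940.05 in WT. The values of each group lay close together, with averages of 3119 ± 68.3 in KO-labelled and 1976 ± 103 in WT libraries (SD, n = 3 each) and a log2 difference of 0.66 (SE 0.11). Each replicate number gave nearly the same, 0.61, 0.69 and 0.69.

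P4HA2, on chromosome 5 from 132191838 to 132295315, had values of 1406, 1052 and 1018 in KO-labelled libraries, against 816, 634 and 691 in WT. The groups did not overlap, and the log2 difference was 0.69 (SE 0.19). The 20 tested genes around it had a median of -0.35, with 0 past the threshold as higher and 4 as lower, so P4HA2, like SPARC, was above its surroundings on that chromosome. The antisense gene P4HA2-AS1 overlaps exons of P4HA2, and PDLIM4 and SLC22A4 overlap its span on the other strand, with log2 differences of 0.10 and 0.36.

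P4HB, which is also protein disulphide isomerase and serves many proteins besides collagen, had values of 18354, 20967 and 17972 in KO-labelled libraries, against 23399.6, 21318 and 18804 in WT. The groups overlapped, and the log2 difference was -0.15 (SE 0.14). Per kilobase of exon, P4HB stood at 2.90, 3.56 and 3.00 times the sum of both alpha subunits in KO-labelled libraries, against 5.71, 5.85 and 5.01 times in WT. The beta subunit transcript was thus the most abundant of the complex in every library, by a smaller factor in KO-labelled cells. The ratio of P4HA1 to P4HA2 per kilobase was 6.23, 7.96 and 8.43 in KO-labelled libraries, against 7.05, 8.22 and 7.72 in WT, and overlapped. These ratios depend on the length used, and the longest transcript was tried after the data were seen. It gave 2.67, 3.41 and 3.61 for P4HA1 to P4HA2 in KO-labelled libraries, against 3.02, 3.52 and 3.31 in WT. For P4HB to both alpha subunits it gave 4.58, 5.81 and 4.93 in KO-labelled libraries, against 9.18, 9.57 and 8.13 in WT, again without overlap.

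The lysyl hydroxylase genes differed among themselves. PLOD2, whose enzyme acts on the telopeptides that form crosslinks, had values of 6413, 6080.4 and 5755 in KO-labelled libraries, against 3994, 3846 and 3838 in WT. Its groups were far apart for their spread, with a log2 difference of 0.64 (SE 0.11), close to the 0.66 of P4HA1. PLOD3, whose enzyme also adds glucose to collagen, had values of 3199, 3874 and 3285 in KO-labelled libraries, against 2302, 2730.01 and 2606 in WT, a log2 difference of 0.44 (SE 0.14). The genes around PLOD3 were higher too, with a median of 0.39 for the nearest 20 and for the 834 tested genes of chromosome 7, so PLOD3 was 0.05 above its chromosome. Exons of PLOD3 overlap those of ZNHIT1 on the other strand, which had a log2 difference of 0.05.

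PLOD1, which acts on lysines in the helix, had values of 3867, 5219 and 4876 in KO-labelled libraries, against 3268, 4374 and 3884 in WT. The groups overlapped, although the KO-labelled library was the higher within each replicate number, by log2 values of 0.24, 0.25 and 0.33. Per kilobase of exon, PLOD2 made up 39.4%, 32.3% and 33.5% of the transcripts of the 3 genes in KO-labelled libraries, against 33.9%, 27.8% and 29.7% in WT. The shares overlapped between groups, and within each replicate number that of the KO-labelled library was the higher. PLOD1 lies on chromosome 1 (11934205 to 11975538), PLOD2 on chromosome 3 (146069440 to 146163653) and PLOD3 on chromosome 7 (101205977 to 101218420).

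SERPINH1, on chromosome 11 from 75562056 to 75572783, had values of 6550.45, 6419 and 6412 in KO-labelled libraries, against 5819, 4686 and 4178 in WT. The KO-labelled values were nearly equal and all lay above the WT values, which were spread more widely. The log2 difference was 0.41 (SE 0.15), and within replicate numbers 1, 2 and 3 it was 0.17, 0.45 and 0.62. The plot of log2 differences sets each gene beside the median of its surroundings.

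**Figure D3:**
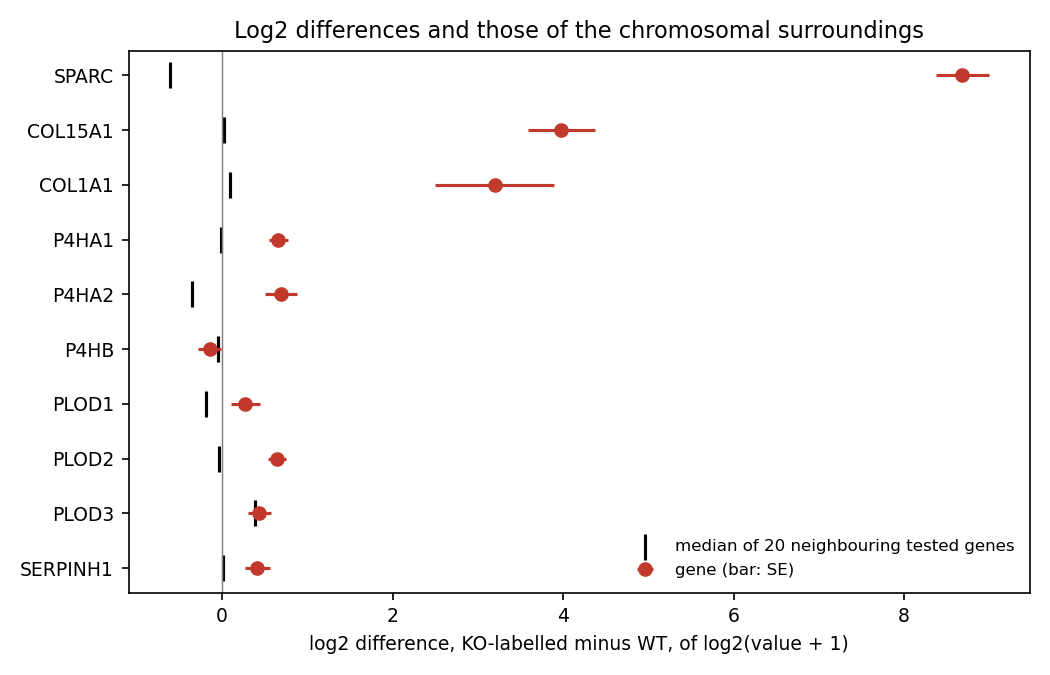
Log2 difference of each gene (KO-labelled minus WT, of log2(value + 1); bars are SE), with the median of the 20 nearest tested genes as a black mark. SPARC and P4HA2 lie above surroundings with medians of -0.62 and -0.35, and PLOD3 lies at the median of its surroundings.

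Set side by side, 9 of the 10 genes had a log2 difference above 0, and in 8 every KO-labelled library lay above every WT library, as it did for 15.2% of the 16658 genes tested, with 14.7% the other way. All 10 passed the filter on low values, but SPARC and COL1A1 would not have passed it on their WT libraries alone. SPARC, COL15A1, COL1A1, P4HA1 and PLOD2, 5 of the 10, were past the threshold of 0.05 in the limma fit across all genes, all as higher in KO-labelled cells. Of all genes 10.3% were past it in either direction, 5.37% as higher and 4.96% as lower. With the replicate number as a block 9 passed as higher, all but P4HB, against 39.7% of genes in either direction and 19.7% as higher. Since the genes were chosen with this contrast known, nothing is read from these counts. Leaving out KO-labelled replicate 1, 2 or 3 gave 4, 2 or 2 past the threshold, and leaving out WT replicate 1, 2 or 3 gave 6, 2 or 3. The median log2 difference of the 10 was 0.65, and that of all tested genes -0.02.

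Replicate 1 stood apart in many of these genes, as it did in many of all genes tested. It was the highest of its genotype in both groups for SPARC, COL15A1, P4HA1, P4HA2, PLOD2 and SERPINH1, and the lowest in both for PLOD1 and PLOD3. Over all tested genes the shares were 34.6% and 33.4%. Without both replicate 1 libraries the log2 differences were 8.67 for SPARC, 4.18 for COL15A1 and 2.81 for COL1A1, and between 0.29 and 0.69 for the others except P4HB, at -0.04.

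The order of the transcripts per kilobase of exon changed between the groups. In KO-labelled cells it was COL15A1 (5781), P4HB (3601), SPARC (1231), SERPINH1 (1029), P4HA1 (1008), PLOD1 (875), PLOD2 (796), PLOD3 (609), P4HA2 (136) and COL1A1 (13.6). The ranges of SPARC and SERPINH1, of SERPINH1 and P4HA1, and of PLOD1 and PLOD2 overlapped, and other neighbours in this order did not. In WT it was P4HB (3993), SERPINH1 (779), PLOD1 (722), P4HA1 (639), PLOD2 (509), PLOD3 (449), COL15A1 (387), P4HA2 (83.9), SPARC (2.84) and COL1A1 (1.66), where the ranges of SERPINH1, PLOD1 and P4HA1 overlapped, that of COL15A1 reached over PLOD3 and PLOD2 and into those of P4HA1 and PLOD1, and those of SPARC and COL1A1 overlapped. The order depended on the length used. With the longest transcript as the length, the order in KO-labelled cells was P4HB (7337), COL15A1 (6998), SERPINH1 (1834), SPARC (1607), PLOD2 (1586), PLOD1 (1583), PLOD3 (1183), P4HA1 (1097), P4HA2 (346) and COL1A1 (19.8). In WT cells P4HA1 (695) then came after PLOD2 (1015.0) and PLOD3 (872).

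COL15A1 was the main collagen transcript of KO-labelled cells, and it also ranked first in WT replicates 1 and 3. Of the summed level per kilobase of 27 collagen genes it held 82.1%, 82.01% and 78.3% in KO-labelled libraries, against 35.04%, 27.8% and 26.9% in WT. The sum itself was 9136, 7139 and 5098 in KO-labelled libraries, against 1799, 990.1 and 953 in WT. Without COL15A1 it was 1640, 1285 and 1105 in KO-labelled libraries, against 1169, 715 and 696 in WT, and the groups then overlapped, although the KO-labelled sum was the higher within each replicate number. COL18A1, which encodes the related multiplexin that releases endostatin, was the highest collagen of WT replicate 2 and the second highest of the other WT libraries. In WT replicate 3 it stood close below COL15A1, at 255.4 against 256.6 per kilobase. COL1A1 ranked 7, 11 and 8 among the 27 in KO-labelled libraries and 18, 21 and 13 in WT.

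**Figure D4:**
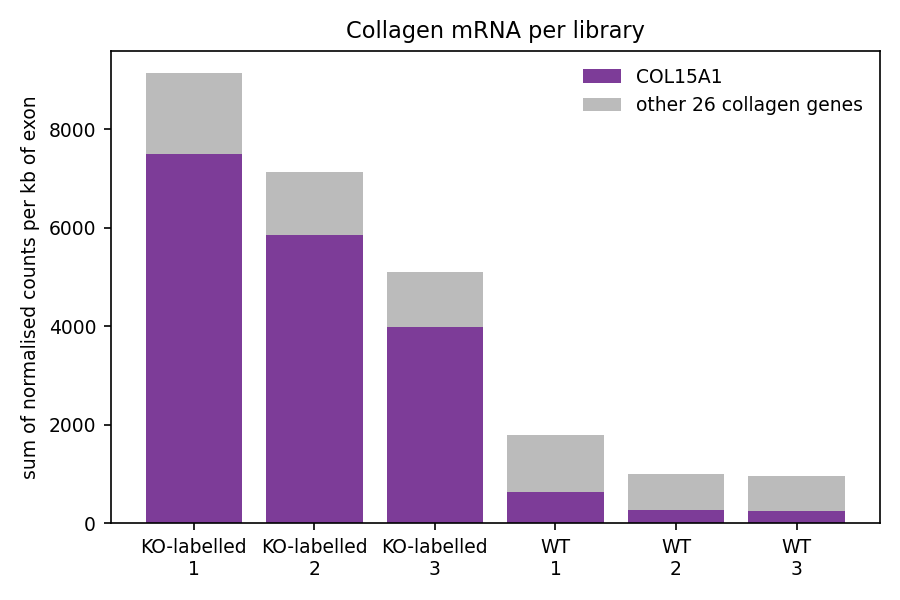
Sum of normalised counts per kilobase of exon over 27 collagen genes in each library, with the part of COL15A1 in purple. COL15A1 makes up 78.3% to 82.1% of the sum in KO-labelled libraries and 26.9% to 35.04% in WT.

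Further collagen genes moved in both directions. Of the other 25 with a value, 16 were tested, of which 2 rose, 1 fell and 13 did not pass, and with the replicate block 6 rose and 2 fell. Their median log2 difference was 0.29. Of all tested genes 5.37% rose and 4.96% fell, and with the block 39.7% passed in either direction, 19.7% as higher. These shares are the background for each list count below. The lists were chosen with earlier results of these data known, so nothing is read from their counts. COL6A5, an alpha chain gene of type VI collagen, rose to 2666, 4039 and 3540 in KO-labelled libraries, against 832, 826 and 768 in WT (log2 2.06, SE 0.18, adjusted p 9.24e-04, limma). COL2A1, the gene of cartilage collagen, rose at low values, with 51.0, 25.01 and 88.96 in KO-labelled libraries, against 3.98, 7.597 and 1.72 in WT (log2 3.34, SE 0.63, adjusted p 0.0193, limma). It passed the filter on low values through its KO-labelled libraries alone. Its adjusted p was 0.0584, 0.0817 and 0.0724 without KO-labelled replicate 1, KO-labelled replicate 3 and WT replicate 3, and 0.00605 with the block (limma). COL25A1, which encodes a membrane collagen, fell to 4.58, 3.09 and 0 in KO-labelled libraries, against 277, 175 and 368 in WT (log2 -6.53, SE 0.69, adjusted p 0.00212, limma), with a log2 of -5.78 without KO-labelled replicate 3. COL25A1 passed the filter through its WT libraries alone. COL6A3 had a log2 difference of 1.65, with an adjusted p (limma) of 0.0581 that was 0.00101 under the replicate block.

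Of the other genes that handle collagen in the endoplasmic reticulum, P3H3 alone passed the test. Of 12 tested in the list of hydroxylation, folding and glycosylation, 1 rose, 0 fell and 11 did not pass, against 5.37% of all genes that rose. With the block 8 of the 12 rose and 0 fell, against 19.7% of all genes that rose. The median log2 difference was 0.32, and 10 of the 12 were above 0. P3H3, a prolyl 3-hydroxylase family gene, rose to 369 ± 78.7 in KO-labelled libraries, against 159 ± 22.4 in WT (SD, n = 3 each; log2 1.20, adjusted p 0.0231, limma). Its adjusted p lay between 0.0812 and 0.0925 without KO-labelled replicate 2 or 3 or WT replicate 2 or 3, and was 0.00409 with the block (limma). TMEM38B, an endoplasmic reticulum ion channel gene linked to brittle bone disease, averaged 2974 in KO-labelled and 2202 in WT libraries (adjusted p 0.0524), P3H1 averaged 2034 in KO-labelled and 1497 in WT libraries (0.0920), and KDELR2, whose product returns chaperones to the endoplasmic reticulum, had a log2 difference of 0.29 (0.182, limma) among chromosome 7 genes with a median of 0.35. Under the block TMEM38B, P3H1 and KDELR2 had adjusted p-values (limma) of 0.00279, 0.00840 and 0.0175.

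Genes of export from the endoplasmic reticulum had 1 rise and 0 falls among 14 tested, and 2 rises and 5 falls with the block, with a median of -0.06. SEC23B, a COPII coat gene, rose by a log2 of 0.59 (adjusted p 0.0357, limma), where the 20 genes around it had a median of 0.46. Its adjusted p lay between 0.0525 and 0.154 without KO-labelled replicate 2 or 3 or any 1 of the WT replicates, and was 0.0723 without an intensity trend. With the replicate block it was 7.44e-04 (limma). SEC31A, SAR1B and TFG had log2 differences of -0.51, -0.73 and -0.23, with adjusted p-values of 0.0679, 0.0777 and 0.2699 and blocked ones of 5.78e-04, 2.74e-04 and 0.0282 (limma). The 20 genes around SAR1B, on chromosome 5, had a median of -0.79.

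Extracellular processing and crosslinking genes had 0 calls among 8 tested by limma, 1 with an unadjusted p under 0.05, and 1 rise and 2 falls with the block. The median was 0.02. The smallest p-values were those of PCOLCE2, a procollagen proteinase enhancer gene (log2 1.22), the propeptidase genes ADAMTS3 (-0.26) and ADAMTS14 (-0.54), and BMP1 (-0.24), with adjusted p-values of 0.184, 0.258, 0.319 and 0.543 (limma). Of 14 genes of the SPARC family and other matricellular proteins 2 were tested, CCN1 (log2 0.52) and SPOCK2 (-0.51), and neither passed limma with or without the block, or had an unadjusted p under 0.05. Collagen receptors had 0 calls among 5 tested by limma and 0 with an unadjusted p under 0.05, with 1 rise (DDR1, blocked adjusted p 0.00327, limma) and 1 fall (GP6, 0.0183) with the block. The platelet collagen receptor gene GP6 had a log2 difference of -0.94, DDR1 of 0.50, ITGA10 of 0.72 and DDR2 of -0.28.

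Among matrix-degrading enzymes and their inhibitors, MMP15 and TIMP1 rose and TIMP3 fell. Of 10 tested genes of collagen degradation and uptake 2 rose, 1 fell and 7 did not pass (4 and 1 with the block), and the median was 0.32. MMP15, a membrane-anchored metalloproteinase gene, rose to 2046 ± 79.7 in KO-labelled libraries, against 840 ± 27.6 in WT, and TIMP1, a metalloproteinase inhibitor gene, to 4809 ± 420.3 in KO-labelled libraries, against 2069 ± 362 in WT (SD, n = 3 each). TIMP3, another inhibitor gene, fell to 4.40 ± 1.57 in KO-labelled libraries, against 84.03 ± 4.77 in WT. The adjusted p-values (limma) were 0.00135 for MMP15, 0.00586 for TIMP1 and 0.00102 for TIMP3. CTSL, a lysosomal protease gene, had a log2 difference of 0.72, with an adjusted p (limma) of 0.0882 that was 0.00534 under the block.

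Among regulators of collagen genes 5 of 13 tested rose, 3 fell and 5 did not pass, 5 and 4 with the block, with a median of 0.12. Of all tested genes 5.37% rose and 4.96% fell, and with the block 39.7% passed in either direction. This list too was chosen with earlier results of these data known, so nothing is read from its counts. CREB3L1, which encodes a transcription factor that drives type I collagen in mouse bone, rose to 316, 350.1 and 367 in KO-labelled libraries, against 83.01, 40.5 and 65.2 in WT (log2 2.49, adjusted p 0.00396, limma). SMAD3, a mediator of TGF-beta signalling, rose to 3711 ± 291 in KO-labelled libraries, against 1149 ± 252 in WT (adjusted p 0.00203, limma), in surroundings with a median log2 difference of 0.33. TGFBR2, a TGF-beta receptor gene, fell to 5.29 ± 1.79 in KO-labelled libraries, against 1700.1 ± 257 in WT (SD, n = 3 each). The mesenchymal factor gene TWIST1 fell to 21.2 ± 3.97 in KO-labelled libraries, against 752 ± 58.5 in WT, and the transcription factor gene ETS1 to 45.3 ± 28.8 in KO-labelled libraries, against 730.5 ± 476 in WT (SD, n = 3 each). The adjusted p-values (limma) of TGFBR2, TWIST1 and ETS1 were 4.71e-05, 8.11e-05 and 0.00765. SMAD2, SMAD4 and SMAD7 rose by log2 values of 0.67, 0.56 and 1.33 where their 20 neighbours on chromosome 18 had medians of 0.68, 0.39 and 0.66, with adjusted p-values (limma) of 0.01203, 0.0285 and 0.0273. With the replicate block the adjusted p-values (limma) of SMAD2, SMAD4 and SMAD7 were 4.41e-04, 7.59e-04 and 4.89e-04. The fits that left out 1 library had no block. None of the 3 passed without KO-labelled replicate 2 or 3 or WT replicate 2 or 3, where the highest adjusted p (limma) was 0.0664, 0.137 and 0.115. SMAD4 (0.0535) and SMAD7 (0.0803) did not pass without KO-labelled replicate 1 either, nor SMAD4 without an intensity trend (0.0643).

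P4HA1, P4HA2, PLOD1 and PLOD2 are known as genes that hypoxia induces. A list that joins other hypoxia-inducible genes with genes of the hypoxia-inducible factor pathway was therefore counted. Of 17 tested genes 0 rose, 1 fell and 16 did not pass, with 4 rises and 2 falls with the block and a median of 0.08. BNIP3, a mitophagy gene, fell to 713 ± 85.6 in KO-labelled libraries, against 1447 ± 237 in WT (SD, n = 3 each; adjusted p 0.0152, limma), with values of 0.0544 to 0.0691 without KO-labelled replicate 2 or 3 or WT replicate 2 or 3. With the replicate block the adjusted p of BNIP3 was 4.11e-04 (limma). The glucose transporter gene SLC2A1 and HIF1A had log2 differences of 0.37 and 0.28, and the peptide hormone gene ADM, at low values, of 1.67, with adjusted p-values of 0.209, 0.231 and 0.244 and blocked ones of 0.00719, 0.0282 and 0.0319 (limma).

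**Figure D5:**
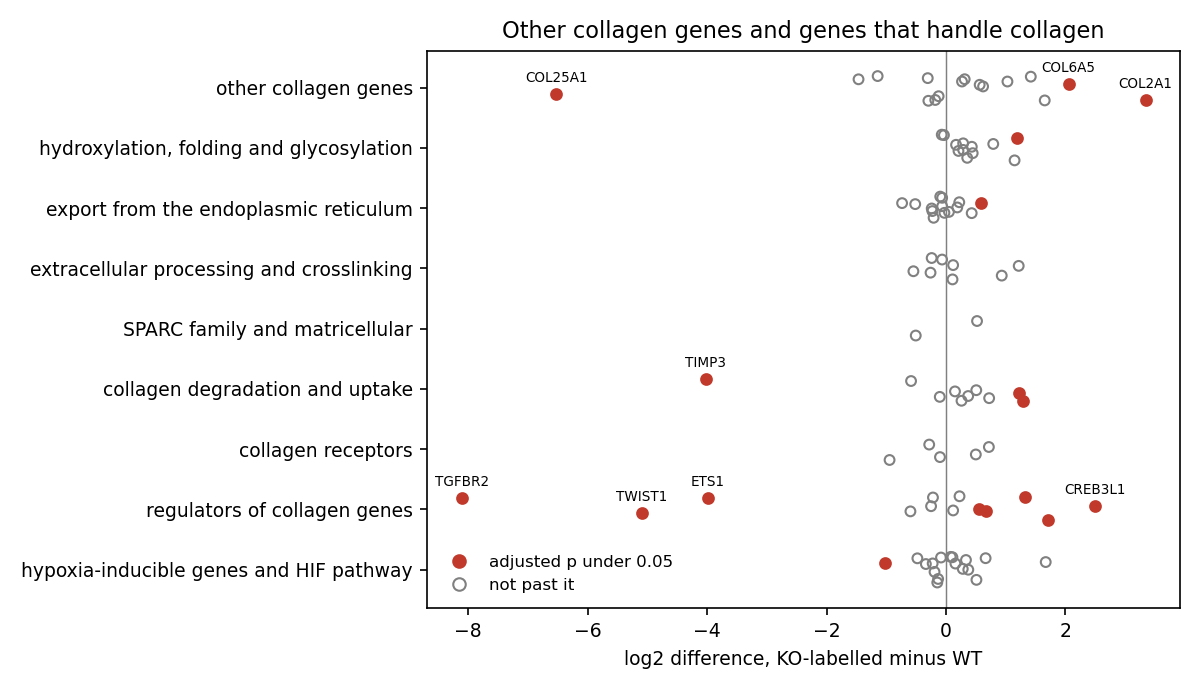
Log2 difference (KO-labelled minus WT) of each tested gene in 9 lists, filled red where the adjusted p (limma) is under 0.05. Most open points lie near 0, and TGFBR2, COL25A1, TWIST1, TIMP3 and ETS1 lie far below it.

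Markers of other cells that make SPARC or collagen were looked at beside these results. Of 12 fibroblast and stromal markers 5 had a value, and their sum per library was 301 to 518 in KO-labelled and 173 to 418 in WT libraries. Most of it came from TAGLN and COL6A3, while COL3A1, DCN and PDGFRB did not exceed 10.9, 10.1 and 10.2 in KO-labelled libraries, where SPARC was at least 4748. COL1A2, the partner chain of COL1A1 in type I collagen, was among the 12 and was not found by symbol among the genes with a value. Of 8 endothelial markers 2 had a value, PECAM1 and ESAM, and their sum was 14.02 to 28.8 in KO-labelled and 98.04 to 200.4 in WT libraries. PECAM1 fell to 9.45 ± 5.75 in KO-labelled libraries, against 129 ± 36.6 in WT (SD, n = 3 each; adjusted p 0.00431, limma). Of 7 megakaryocyte and platelet markers 3 had a value, with a sum of 6315 to 7352 in KO-labelled and 3345 to 3694 in WT libraries. GP1BB rose and ITGA2B fell, with adjusted p-values of 7.29e-04 and 0.00601 (limma), and ITGB3 had a log2 difference of -0.10. The part of these cells' programmes in the SPARC and collagen values was not tested.

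The 5 genes whose centred log2 profile over the 6 libraries lay nearest to that of SPARC were SEC14L6, C12orf40, EPB41L3, RAB13 and LHFPL3-AS2, at root mean square distances of 0.36, 0.43, 0.47, 0.50 and 0.53 on the log2 scale. SEC14L6, C12orf40 and LHFPL3-AS2 were listed at 0 in all WT libraries, and EPB41L3 and RAB13 averaged 4.95 and 6.77 there. In KO-labelled libraries the 5 averaged 547, 269, 1363, 1776 and 250.2. LHFPL3-AS2 is an antisense transcript, and its value is uncertain for the reason given for CLMAT3. None of the other 9 genes described here was among the 5. Their log2 differences were 3.98 or lower, against 8.68 for SPARC, and the distance grows with that gap, so nothing is read from their absence.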

How the data were processed

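Polyadenylated RNA of K562 cells was sequenced from 3 libraries labelled ACK KO and 3 labelled WT, with 500 ng of RNA each per the labels. The deposited signal values are the authors' normalised counts per gene on a linear scale. The submitters' processing notes name GRCh38 and the tools DESeq2 1.26.0, STAR 2.7.2b, R 3.6.1 and Salmon 1.1.0, with no role or order, and no source used here gives the normalisation, the annotation or the counting settings. In each library only 23.6% to 44.1% of low values were within 0.02 of a multiple of 1 shared step, so the numbers of reads were not recoverable. Symbols were matched for 19392 of 19498 identifiers, and positions and exon lengths for 19112 from GENCODE 29.

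The test was limma 3.58.1 (R 4.3.3, intensity trend) on log2(value + 1), for 16658 genes with 10 or more in at least 3 of 6 libraries, with Benjamini-Hochberg adjustment over all of them and a threshold of 0.05. A gene can pass this filter on 1 group alone. COL2A1 and the 5 genes nearest SPARC did so on KO-labelled libraries, and COL25A1, TIMP3, TGFBR2 and PECAM1 on WT libraries. The procedure was checked on simulated data with independent libraries, so the check does not cover the correlation of same-numbered libraries given below. This fit had no replicate block, and p-values and counts given without mention of the block come from it. Deviations from the group mean correlated between same-numbered libraries of the 2 genotypes at 0.699, 0.521 and 0.342 for replicates 1, 2 and 3, all above 0.1. Limma was therefore also run with a replicate block, which treats same-numbered libraries as pairs. The fits that left out libraries had no block. What a number marks is not stated. Unlike numbers reached 0.281. Level per kilobase is the normalised count over the merged exon length.

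The 10 genes, the 9 pathway lists and the 4 marker lists were chosen with earlier results of these data known. Named are the 10 genes, each list gene past the threshold or else up to 4 by smallest p, the 3 most abundant markers, the 3 tested genes on each side of SPARC, COL15A1 and COL1A1, and the 5 nearest to SPARC in profile. Alternatives were other pseudocounts (0.5 and 5), filters, scalings, no trend, the block and leaving out libraries. Promoter windows come from RefSeq (GRCh38.p14).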

Additional observations from a re-analysis of the deposited data

How the results depend on the processing

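The log2 differences of the 10 genes kept their sign under each of the 15 alternatives, and moved by less than the spread between replicates except where each library was scaled to the same sum (P4HA1 0.76 and PLOD2 0.74) or quantile normalised (PLOD2 0.71). Without 1 library they ranged from 8.41 to 8.86 for SPARC, 3.75 to 4.40 for COL15A1 and 2.58 to 3.85 for COL1A1. With the replicate block, by the pairing of numbers, 6612 genes passed in place of 1721, 9 in place of 5 of the 10 genes, 8 in place of 3 other collagen genes and 40 in place of 14 collagen-handling genes. Leaving out both replicate 1 libraries gave 4731, 8, 8 and 28. Without 1 library the counts ran from 726 to 2183, 2 to 6, 2 to 5 and 8 to 20. No filter and quantile normalisation each gave 5 other collagen genes. Signs turned for neighbours near 0: XYLT2 was 0.070 under equal sums and -0.15 to 0.045 without 1 library, ALG2 was -0.00033 under quantile normalisation and -0.075 to 0.17 without 1 library, and SEC61B was -0.33 to 0.18 without 1 library. The causes were not tested. Among the neighbours, the genes named from the pathway lists and those nearest SPARC in profile, the block added 20 calls and took none away, and it also added calls for COL18A1, BCR, ABL1 and GATA1. Levels per kilobase with the longest transcript as length moved by more than the spread for 15 of 20 values. Read depth is unknown and limits the low values of SPARC and COL1A1 in WT.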
